A study of Mus musculus with 8 samples.

Results

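MHC class II presentation was followed through 7 mouse genes in hearts with or without pressure overload. The genes were *H2-Aa*, *H2-Ab1*, *H2-Eb1*, *H2-DMa*, *H2-DMb1*, *Cd74* and *Ciita*. They were chosen by name for their place in the pathway, with earlier results of these data known. Each was found by Ensembl identifier among 25929 listed genes. All 7 were detected in each of the 8 libraries. A filter that asked for 1 FPKM in 2 libraries left 14442 genes for testing, FPKM being fragments per kilobase of transcript scaled to library depth. The filter was passed in every library by 6 of the 7 genes, whereas *Ciita* reached 1 FPKM in the WT-TAC libraries alone. *Ciita* was therefore tested only because it was high there, and counts over the members in comparisons with WT-TAC are given for the other 6. Pressure overload was produced by transverse aortic constriction (TAC), which narrows the aorta and was kept for 8 weeks, and the sham operation opened the chest without a constriction. The 4 groups were WT-Sham and WT-TAC, from mice labelled C57BL/6, and Fat1-Sham and Fat1-TAC, from mice labelled Fat-1, with 2 libraries in each group. The *fat-1* transgene comes from the nematode *C. elegans*, and the desaturase it encodes lets mouse tissue make n-3 polyunsaturated fatty acids (PUFAs) out of n-6 ones, which the WT littermates cannot do. Surgery was done at an age of 3 months. The sample labels name ventricular tissue, whereas the methods name whole hearts, and neither says whether a library was made from 1 mouse or from pooled mice. Libraries carry the name of their group with a number, as in WT-TAC1, and the numbers do not pair libraries across groups.

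MHC class II molecules present peptides from proteins taken up by a cell to CD4+ T cells. An alpha chain and a beta chain meet the invariant chain in the endoplasmic reticulum, travel to an endosome, lose the invariant chain there and exchange its last fragment for a peptide with the help of H2-DM. Dendritic cells, B cells, macrophages and thymic epithelium make most class II protein in a mouse, and in the heart it is best known from resident macrophages and dendritic cells. Transcription of the whole set depends on the coactivator CIITA, which binds no DNA itself and docks on the factors that sit on the X and Y boxes upstream of class II genes.

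In the GENCODE M21 annotation of GRCm38, 5 of the 7 genes lie on chromosome 17 between 34119541 and 34316674, a stretch of 197.1 kb. They are, in order, *H2-DMa* (34119541 to 34139101), *H2-DMb1* (34153072 to 34160230), *H2-Ab1* (34257689 to 34269419), *H2-Aa* (34282744 to 34287823, the only one of the 5 on the minus strand) and *H2-Eb1* (34305867 to 34316674).

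The X box was searched as AGNNACNG and, in a longer form, as AGNNACNG followed at once by ATG, the Y box as GATTGG and CTGATTGG, and the X2 site as TGACG, on both strands of RefSeq promoter windows (GRCm38.p6) that run from 250 bases before a start site to 50 after it. Windows were found for 4 of the 7 genes, namely *H2-Aa*, *H2-Eb1*, *H2-DMb1* and *H2-DMa*, the last with 2 start sites. The stretch with the boxes of *H2-DMb1* lies within its GENCODE M21 gene and is not shown. Shown are stretches of *H2-Aa*, an alpha chain gene, and *H2-Eb1*, a beta chain gene, which lie outside theirs. The first is chr17:34287857-34287917 on the minus strand and the second chr17:34305762-34305822 on the plus strand, both 5′ to 3′, and capitals mark the matches to AGNNACNG, to TGACG on either strand and to GATTGG.
H2-Aa: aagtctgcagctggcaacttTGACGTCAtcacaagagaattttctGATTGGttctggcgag
H2-Eb1: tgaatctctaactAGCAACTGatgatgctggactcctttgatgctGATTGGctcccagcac

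The *H2-Eb1* window held the longer X box from base -92 to -82 and the longer Y box from base -62 to -55, counted from the start site as base 0, with 21 bases between the X box and GATTGG. The *H2-DMb1* window held the longer X box from base -95 to -85 and GATTGG from base -62 to -57, with 22 bases between them, although GENCODE M21 starts this gene 119 bases farther upstream. The *H2-Aa* window held the longer Y box from base -51 to -44 but no match to AGNNACNG, and 2 overlapping TGACG matches, 1 on each strand, ended 17 bases before its GATTGG. Of the *H2-DMa* windows, 1 held AGNNACNG at base -179 and the other GATTGG at base -199, and neither held both. GENCODE M21 starts *H2-DMa* 3291 and 5977 bases upstream of these start sites, so the windows may not hold its promoter. Among all 32851 RefSeq windows, AGNNACNG occurred in 50.9%, its longer form in 1.0%, GATTGG in 16.1%, CTGATTGG in 4.1% and TGACG in 20.8%, so only the longer forms were uncommon, and GATTGG is part of CTGATTGG as AGNNACNG is part of the longer X box. Outside the 7 genes, *H2-Eb2* and *H2-Oa* held the longer form of both boxes, and *H2-DMb2* and *H2-Ob* held GATTGG and no longer X box. These matches describe the letters of each window and say nothing of binding.

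**Figure D1:**
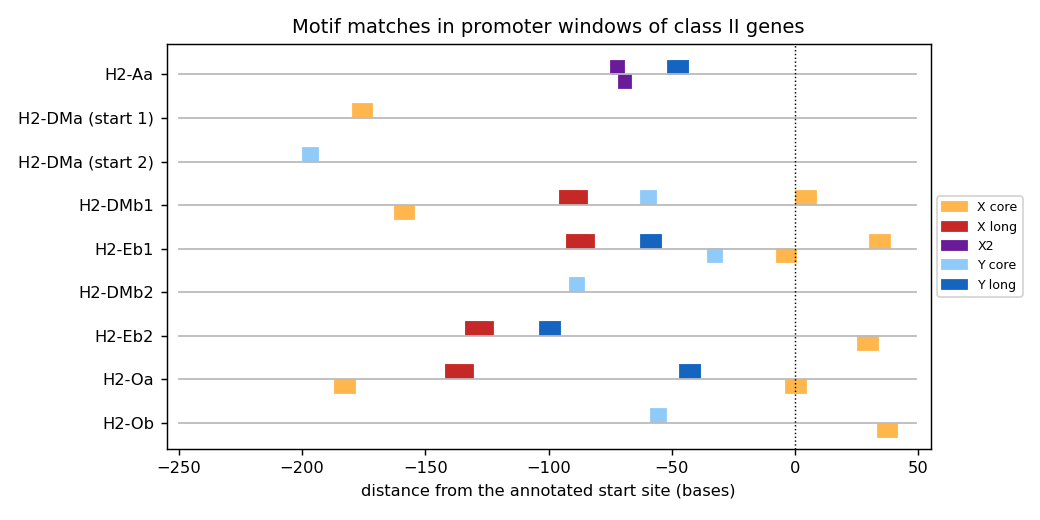
Positions of motif matches in the promoter windows of class II genes, in bases from the annotated start site at 0. Boxes above a line are matches on the gene's strand and boxes below it on the other strand, a long form is drawn over its core, and the longer X box lies upstream of a Y box in H2-Eb1, H2-DMb1, H2-Eb2 and H2-Oa.

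Depth recovered from the values ran from 14163994 fragments in WT-Sham1 to 21218331 in WT-Sham2. WT-TAC1 and WT-TAC2 stood apart from the other libraries and from each other. Over the tested genes their log2 values correlated at r = 0.898, against 0.981 to 0.985 for the pairs of the other groups, and 2560 genes differed by more than 2-fold between them, against 275 to 362. Markers of immature thymocytes, 5 genes in the table including *Rag1* and *Dntt*, summed to 690 FPKM in WT-TAC1 and to 0.467 to 0.928 in the other 7 libraries. Markers of thymic epithelium, 4 genes, summed to 513 FPKM in WT-TAC1 and to 2.001 to 5.62 elsewhere. Markers of airway epithelium, 7 genes, reached 3918 FPKM in WT-TAC2, 1485 in WT-TAC1 and 48.9 in Fat1-Sham1, against 0.207 to 1.13 in the other 5. Cardiomyocyte markers, 10 genes, were lowest in WT-TAC1 at 28170 FPKM and ran from 51530 to 68050 in the others, so heart muscle mRNA was abundant in all 8.

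The class II genes had 1 pattern in common. Each of the 6 members other than *Ciita* was highest in WT-TAC1, next highest in WT-TAC2 and after that in Fat1-TAC2, and the 4 sham libraries differed little. *Ciita*, tested only because it was high in WT-TAC, had the same order. Both WT-TAC libraries were above the other 6 for 40.3% of all tested genes. The share of all genes with the full order was not determined. Against the mean of the WT-Sham libraries, the levels of the 7 genes were 5.07-fold to 11.03-fold in WT-TAC1, 1.82-fold to 2.88-fold in WT-TAC2, 1.28-fold to 1.76-fold in Fat1-TAC2 and 0.900-fold to 1.24-fold in Fat1-TAC1. In bulk tissue, fewer or more cells of a type and less or more RNA per cell cannot be told apart.

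*Ciita*, the master coactivator of the set, lies on chromosome 16 (10480059 to 10528418, plus strand) and was the least abundant member. Its level was 0.363 and 0.556 FPKM in the WT-Sham libraries, 5.07 and 1.32 in WT-TAC, 0.696 and 0.467 in Fat1-Sham, and 0.571 and 0.808 in Fat1-TAC. Both WT-TAC libraries were above all others, which is also why *Ciita* passed the filter, so this is no separate result. The Fat1-Sham and Fat1-TAC libraries overlapped. The values rest on 27 to 528 fragments, the fewest whole numbers that the FPKM values allow, so its sham levels carry a wide counting error.

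*H2-Aa* encodes the alpha chain of the I-A molecule. Its level was 68.1 and 56.8 FPKM in WT-Sham, 375 and 116 in WT-TAC, 61.8 and 46.9 in Fat1-Sham, and 65.4 and 88.0 in Fat1-TAC. The WT-TAC libraries were the highest and differed from each other by more than any pair of sham libraries, and 1 Fat1-TAC library lay below the higher WT-Sham library. *H2-Ab1*, the beta chain that pairs with it, reached the highest single value among the members. Its level was 63.4 and 56.9 FPKM in WT-Sham, 473 and 128 in WT-TAC, 76.6 and 59.9 in Fat1-Sham, and 65.5 and 106 in Fat1-TAC. *H2-Eb1* encodes the beta chain of I-E, whose alpha chain gene is not functional in C57BL/6 mice. It was at 40.1 and 41.5 FPKM in WT-Sham, 256 and 80.8 in WT-TAC, 45.6 and 38.4 in Fat1-Sham, and 48.0 and 65.3 in Fat1-TAC. Both Fat1-TAC libraries were above both Fat1-Sham libraries, as for 26.8% of all tested genes.

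*Cd74* encodes the invariant chain, which fills the groove of a new class II molecule and steers it to the endosome. The gene lies on chromosome 18 (60803848 to 60812652, plus strand) and was at 59.5 and 52.7 FPKM in WT-Sham, 337 and 108 in WT-TAC, 62.5 and 48.6 in Fat1-Sham, and 54.5 and 78.8 in Fat1-TAC. Fat1-TAC1 lay among the sham values and Fat1-TAC2 above all 4 of them. *H2-DMa* and *H2-DMb1* encode the chains of H2-DM, which frees the groove of the last invariant chain fragment. *H2-DMa* was at 3.72 and 4.70 FPKM in WT-Sham, 21.3 and 7.68 in WT-TAC, 4.59 and 3.34 in Fat1-Sham, and 3.79 and 5.40 in Fat1-TAC. *H2-DMb1* was at 2.56 and 3.06 FPKM in WT-Sham, 18 and 7.17 in WT-TAC, 2.84 and 3.27 in Fat1-Sham, and 3.37 and 4.94 in Fat1-TAC. Of the 2 genes, *H2-DMb1* alone had both Fat1-TAC libraries above both Fat1-Sham libraries, which held for 26.8% of all tested genes.

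**Figure D2:**
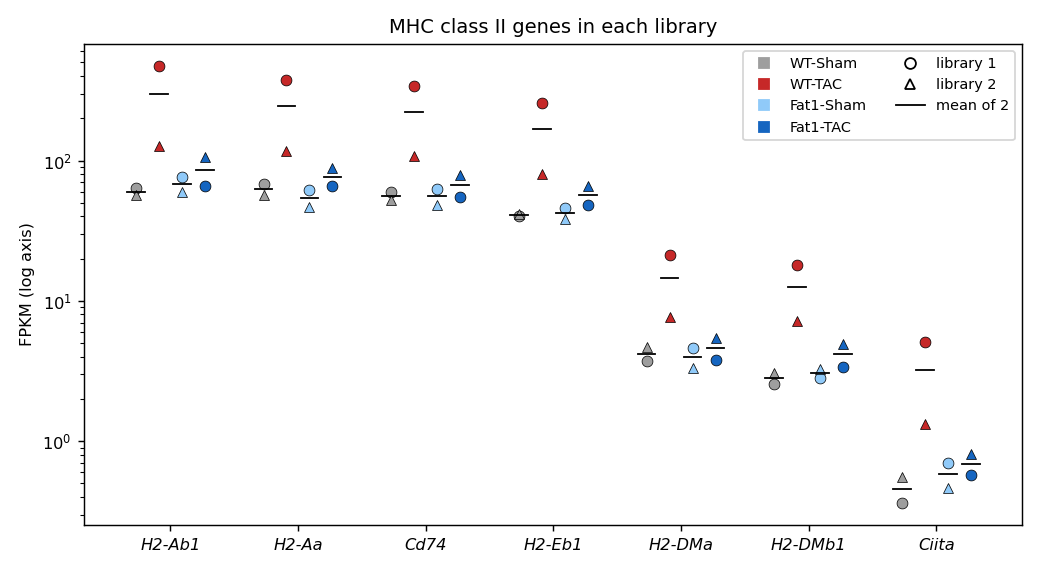
FPKM of the 7 class II genes in each library on a log axis, with circles and triangles for libraries 1 and 2 of a group and a bar at the mean of 2. WT-TAC1 (red circle) is the highest point of every gene and WT-TAC2 (red triangle) the second, whereas grey and light blue sham points lie together.

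By group mean, the order of levels was WT-TAC, Fat1-TAC and then the sham groups for each of the 7 genes. For *H2-Ab1*, the mean was 300.2 ± 244 FPKM (SD, n = 2) in WT-TAC, 85.5 ± 28.4 in Fat1-TAC, 68.3 ± 11.8 in Fat1-Sham and 60.1 ± 4.63 in WT-Sham. For *Cd74*, it was 222 ± 162 in WT-TAC, 66.7 ± 17.2 in Fat1-TAC, 55.6 ± 9.86 in Fat1-Sham and 56.1 ± 4.77 in WT-Sham. For *Ciita*, it was 3.20 ± 2.65 in WT-TAC, 0.689 ± 0.168 in Fat1-TAC, 0.582 ± 0.162 in Fat1-Sham and 0.459 ± 0.137 in WT-Sham. In these 3 genes the means of Fat1-TAC and of the sham groups lay within 1 SD of Fat1-TAC, except for *Ciita* in WT-Sham, and the SD of WT-TAC was the widest because its libraries differed so much.

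Ratios between members were then compared across libraries. FPKM counts per length, but the length used for each gene is that of the deposited values, so ratios between libraries say more than ratios between genes. *H2-Ab1* ran from 0.931 to 1.28 times *H2-Aa* over the 8 libraries, *H2-Eb1* from 0.589 to 0.819 times and *Cd74* from 0.834 to 1.03 times. *H2-DMb1* ran from 0.619 to 0.979 times *H2-DMa*. The level of *H2-DMa* was 5.46% to 8.28% of that of *H2-Aa*, and that of *Ciita* 0.533% to 1.35%, the latter highest in WT-TAC1 and lowest in WT-Sham1. In WT-TAC1, the ratios of *H2-Ab1*, *H2-Eb1* and *Cd74* to *H2-Aa* lay within the range of the other 7 libraries. Ratios to *H2-Ab1* did not, since *H2-Eb1* was 0.542 times *H2-Ab1* in WT-TAC1 against 0.596 to 0.734 times elsewhere, and *Cd74* was 0.713 times against 0.746 to 0.938 times.

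The first comparison was pressure overload in WT mice. In WT-TAC against WT-Sham, the 7 genes had higher means by 2.58-fold (*Ciita*) to 4.05-fold (*H2-Ab1*) on the log2(FPKM + 1) scale, yet none passed the test. The place of *Ciita* as the smallest is set by the pseudocount of 1, since its log2 fold change was 1.37 there but 2.30 with a pseudocount of 0.1 and 2.50 with limma-voom on recovered fragments, the largest of the 7 in both. Genes were called by limma at a Benjamini-Hochberg adjusted p under 0.1 over all 14442 genes and a 1.5-fold change, which 133 genes passed upward (0.921% of those tested) and 2 downward (0.0138%). The log2 fold change was 2.02 (SE 0.55, limma adjusted p = 0.174) for *H2-Ab1*, 1.73 (SE 0.49, adjusted p = 0.174) for *H2-Aa* and 1.80 (SE 0.47, adjusted p = 0.174) for *H2-Eb1*. It was 1.75 for *Cd74*, 1.71 for *H2-DMb1* (SE 0.40, limma adjusted p = 0.159, the lowest of the 7), 1.42 for *H2-DMa* and 1.37 for *Ciita*. The 95% intervals of the 6 members other than *Ciita* were above 0, such as 0.40 to 2.45 for *H2-DMa* and 0.72 to 3.32 for *H2-Ab1*. That of *Ciita* was 0.36 to 2.37. The fit shares 1 estimate of spread over the 4 groups, so these intervals do not show in full the wider spread of the WT-TAC pair. At an unadjusted p under 0.05 and 1.5-fold, 6 of the 6 members other than *Ciita* were higher, but so were 22.7% of all tested genes. Both WT-TAC libraries were above both WT-Sham libraries for these 6, which held for 52.5% of all tested genes, and above the other 6 libraries for all of them, which held for 40.3%. The median log2 fold change was 1.73 for the 7 members, 1.74 without *Ciita* and 0.39 for all tested genes. The values for the 7 members and for all genes were 1.28 and -0.02 with scaling by the median of ratios, under which 23 genes were called up in place of 133. An exact permutation test of 2 libraries against 2 cannot go below p = 0.33.

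The size of this difference depended on which WT-TAC library was kept. Without WT-TAC1, the log2 fold changes ran from 0.67 for *Ciita* to 1.10 for *H2-DMb1* and the median was 0.93, against 0.21 for all tested genes, and none of the members was called, where 143 genes were called up and 3 down. Without WT-TAC2, which leaves WT-TAC1 as the lone library of its group and assumes that it would vary like the other groups, the median was 2.57 and the 6 members and *Ciita* were called up, as were 6497 of the 14442 genes, with 911 called down. The markers of thymocytes and thymic epithelium given above were high in WT-TAC1 alone. In WT-TAC2, they summed to 0.861 and 5.62 FPKM, the latter against 2.001 to 3.08 in the sham and Fat1-TAC libraries. The airway markers of WT-TAC2 summed to 3918 FPKM, the highest of the 8. Its class II levels were 1.82-fold to 2.88-fold those of WT-Sham, with all 6 members other than *Ciita* above all 4 sham libraries. A level above all 4 sham libraries held for 55.9% of all tested genes in WT-TAC2 and for 66.6% in WT-TAC1, where it was also found for all 6.

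The second comparison was pressure overload in fat-1 mice. In Fat1-TAC against Fat1-Sham, the 7 genes had higher means by 1.07-fold (*Ciita*) to 1.40-fold (*H2-Aa*), and none was called, where 1 gene of all tested was (0.00692%). The log2 fold change was 0.49 for *H2-Aa* (95% interval -0.67 to 1.64, limma adjusted p = 1), 0.41 for *H2-Eb1* (-0.70 to 1.52) and 0.10 for *Ciita* (-0.91 to 1.10). The median was 0.29 for the members and 0.02 for all tested genes, and 0 members were past an unadjusted p of 0.05. The intervals include 0 and reach past 2-fold in the members' direction, so a change of that size could not be told from none. They rest on the shared spread, which includes that of the WT-TAC libraries. Both Fat1-TAC libraries were above both Fat1-Sham libraries for *H2-Aa*, *H2-Eb1* and *H2-DMb1*, 3 of 7 members, against 26.8% of all tested genes. Fat1-TAC2 was above all 4 sham libraries for each of the 7 genes, which held for 29.1% of all tested genes, and Fat1-TAC1 for 2 of 7, which held for 19.9%. Leaving out Fat1-TAC2 brought the median to -0.01 and leaving out Fat1-TAC1 brought it to 0.55.

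The genotypes were next compared within each operation. In Fat1-Sham against WT-Sham, the log2 fold changes lay on both sides of 0, from -0.20 for *H2-Aa* (95% interval -1.36 to 0.95) to 0.17 for *H2-Ab1* (-1.13 to 1.47). None of the members was called, and 0% of all tested genes were, with limma adjusted p = 1 throughout. At an unadjusted p under 0.05 and 1.5-fold, 0 of 7 members passed, and 29 of all genes did upward and 100 downward. The intervals include 0 and are wide, so differences of the sizes just given could not be told from none.

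In Fat1-TAC against WT-TAC, the members were at 0.341 (*H2-Ab1*) to 0.449 (*Ciita*) of the WT-TAC value, and none was called. Of all tested genes, 201 were called down (1.39%) and 5 up (0.0346%). The log2 fold change was -1.55 for *H2-Ab1* (SE 0.55, limma adjusted p = 0.163), -1.53 for *Cd74* (SE 0.48, adjusted p = 0.163) and -1.45 for *H2-Aa* (SE 0.49, adjusted p = 0.163). It was -1.35 for *H2-Eb1*, -1.33 for *H2-DMa*, -1.29 for *H2-DMb1* and -1.16 for *Ciita*. The 95% intervals of the 6 members other than *Ciita* were below 0, with the same shared spread. At an unadjusted p under 0.05 and 1.5-fold, 6 of the 6 members other than *Ciita* were lower, as were 23.5% of all tested genes, and both WT-TAC libraries were above both Fat1-TAC libraries for these 6 and for 57.1% of all genes. The median was -1.35 for the 7 members, -1.40 without *Ciita* and -0.40 for all genes. The values for the 7 members and for all genes were -0.90 and -0.002 with scaling by the median of ratios, under which 19 genes were called down in place of 201. This comparison and that of WT-TAC against WT-Sham share the WT-TAC libraries. Without WT-TAC1 the median was -0.61, with no member called and 186 genes called down. Without WT-TAC2 it was -2.17, with the 6 members and *Ciita* among 6763 genes called down, and 1074 called up.

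**Figure D3:**
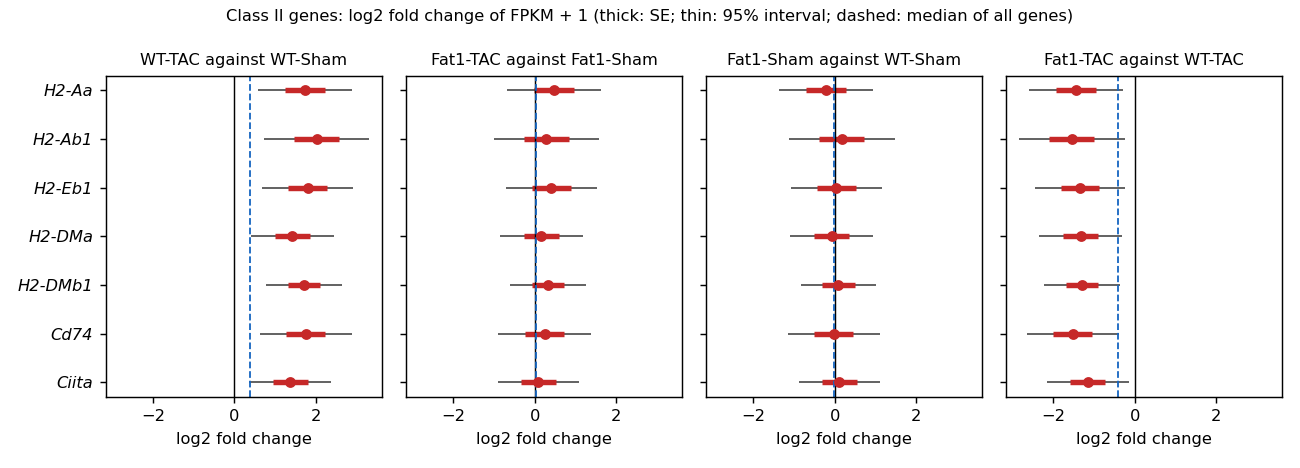
Log2 fold change of FPKM + 1 for each class II gene in 4 comparisons, with thick bars for the SE, thin bars for the 95% interval and a dashed line at the median of all tested genes. The 7 genes lie at 1.37 to 2.02 for WT-TAC against WT-Sham and at -1.55 to -1.16 for Fat1-TAC against WT-TAC, and near 0 in the other panels.

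**Figure D4:**
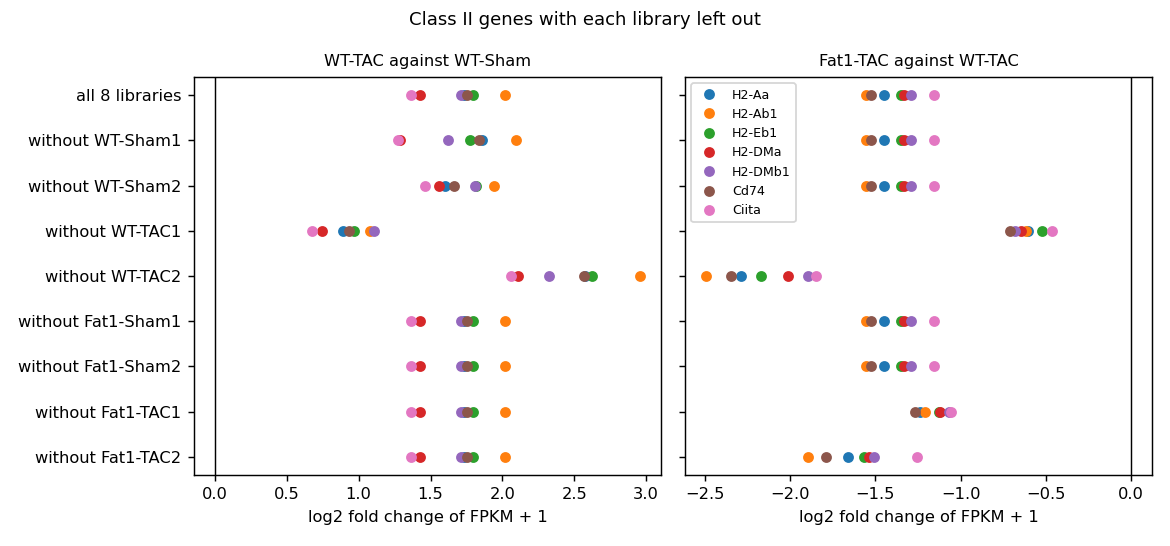
Log2 fold change of FPKM + 1 for each class II gene with all 8 libraries and with each library left out in turn. Values moved most when WT-TAC1 or WT-TAC2 was left out, with medians of 0.93 and 2.57 on the left and of -0.61 and -2.17 on the right.

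Whether the response to TAC differed between the genotypes was tested as an interaction. Its log2 value ran from -1.73 for *H2-Ab1* to -1.24 for *H2-Aa*, with a limma adjusted p of 0.495 for each member. None was called, where 10 of all tested genes were (0.0692%). At an unadjusted p under 0.05 and 1.5-fold, 1 of the members, *H2-DMb1*, passed downward, against 6.38% of all genes. The interval of *H2-DMb1* was -2.70 to -0.07 and those of the other 6 included 0. The difference between the genotypes in the response to TAC was therefore not shown for these genes.

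Genes around the 7 members were taken from lists of the pathway, and 0 of their genes were called in any comparison. *H2-DMb2* is a neighbouring near-copy of *H2-DMb1*, and their longest transcripts are 87.3% identical over 1157 aligned positions and share a run of 221 bases, so reads may be divided between them in a way that the counting settles. *H2-DMb2* was at 0.457 and 0.916 FPKM in WT-Sham, 20.0 and 2.99 in WT-TAC, 0.416 and 0.473 in Fat1-Sham, and 0.693 and 1.43 in Fat1-TAC. It was 1.11 times *H2-DMb1* in WT-TAC1 and 0.417 times in WT-TAC2, but 0.145 to 0.299 times elsewhere, so here the proportions did change between libraries. No other pair of the class II chains compared shared a run over 44 bases.

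H2-DO, made from *H2-Oa* and *H2-Ob*, restrains H2-DM and is best known from B cells and thymic epithelium. *H2-Oa* was at 4.26 FPKM in WT-TAC1, 0.528 in WT-TAC2 and 0.142 in Fat1-TAC2, at 0.0609 and 0.0406 in WT-Sham, and listed at 0 in both Fat1-Sham libraries and Fat1-TAC1. *H2-Ob* was at 0.519 and 0.636 FPKM in WT-Sham, 6.46 and 2.29 in WT-TAC, 0.517 and 0.408 in Fat1-Sham, and 0.755 and 1.39 in Fat1-TAC. It thus followed the same order over the 3 highest libraries as the members. *H2-Ob* was 30.3% and 29.8% of *H2-DMa* in WT-TAC and 25.7% in Fat1-TAC2, and 11.3% to 19.9% in the other 5 libraries. *H2-Eb2*, a further beta chain gene, was at 4.57 FPKM in WT-TAC1 and at 0 to 0.125 elsewhere.

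The proteases and other proteins that work on class II in the endosome varied less. Of the 8 listed genes in the table, 6 had a mean in WT-TAC above that of WT-Sham, at a median log2 fold change of 0.21, below the 0.39 of all tested genes. *Ctss*, cathepsin S, which cuts the invariant chain, was at 17.1 and 22.1 FPKM in WT-Sham, 64.8 and 25.2 in WT-TAC, 14.8 and 16.7 in Fat1-Sham, and 18.2 and 18.1 in Fat1-TAC. *Marchf1*, a ubiquitin ligase that removes class II from the surface, was at 2.77 FPKM in WT-TAC1 and 0.805 to 1.08 in the other 7. *Ctsd* was lowest in WT-TAC1, at 193 FPKM against 232 to 247.

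The factors that hold CIITA on the promoter were all present. Of 7 genes, which encode the subunits of RFX, those of NF-Y and CREB1, 7 had a mean in WT-TAC above that of WT-Sham and were highest in WT-TAC1. Their median log2 fold change was 0.93, against 0.39 for all tested genes. At an unadjusted p under 0.05 and 1.5-fold, 2 of these 7 passed upward, against 22.7% of all tested genes. WT-TAC1 was above the 4 sham libraries for 66.6% of all tested genes. *Rfx5*, a subunit of RFX, was at 2.20 and 2.76 FPKM in WT-Sham, 9.12 and 3.87 in WT-TAC, 2.29 and 1.81 in Fat1-Sham, and 3.54 and 2.99 in Fat1-TAC. *Ifng*, the main cytokine that induces *Ciita*, was listed at 0 to 0.0702 FPKM in all 8 libraries and did not enter the test. *Irf1*, a target of interferon gamma, was at 21.1 and 18.9 FPKM in WT-Sham, 55.3 and 24.0 in WT-TAC, 20.4 and 18.6 in Fat1-Sham, and 23.2 and 22.7 in Fat1-TAC. Of the 6 co-stimulation genes, 4 were tested, and the mean of WT-TAC exceeded that of WT-Sham for all 4, at a median of 0.97. Of these, 1 passed upward at an unadjusted p under 0.05 and 1.5-fold, as did 22.7% of all tested genes.

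Class I presentation, which shows peptides from inside the cell to CD8+ T cells, was set beside class II. Of 10 genes, 10 had a mean in WT-TAC above that of WT-Sham. Their median log2 fold change was 1.19, against 1.73 for the class II members and 0.39 for all tested genes. At an unadjusted p under 0.05 and 1.5-fold, 9 of 10 passed upward, as did 22.7% of all tested genes. *Psmb8*, an immunoproteasome subunit, was at 4.43 and 4.97 FPKM in WT-Sham, 50.2 and 8.83 in WT-TAC, 5.08 and 4.48 in Fat1-Sham, and 6.53 and 6.96 in Fat1-TAC. *Nlrc5*, the class I counterpart of *Ciita*, was at 2.34 and 2.31 FPKM in WT-Sham, 17.8 and 5.31 in WT-TAC, 2.39 and 3.51 in Fat1-Sham, and 4.83 and 6.26 in Fat1-TAC. Both Fat1-TAC libraries were above both Fat1-Sham libraries for *Nlrc5*, as for 26.8% of all tested genes. In Fat1-TAC against Fat1-Sham, all 10 class I genes had a higher mean, with a median of 0.40, but 0 of 10 passed an unadjusted p of 0.05 with 1.5-fold. The sum of the 7 class II members was 1.21 times that of the class I heavy chain genes *H2-K1* and *H2-D1* in WT-TAC1 and 0.438 to 0.587 times in the other 7 libraries.

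Markers of cells that make class II protein were summed in each library. Macrophage markers, 10 genes including *Csf1r* and *C1qa*, summed to 426 FPKM in WT-TAC1, 311 in WT-TAC2 and 226 to 338 in the other 6, so the sum of the class II members was 3.48 times that of the macrophage markers in WT-TAC1, 1.44 times in WT-TAC2, 1.5 times in Fat1-TAC2 and 0.640 to 1.12 in the other 5. Dendritic cell markers, 10 genes, summed to 94.6 FPKM in WT-TAC1, 58.0 in Fat1-TAC2, 51.1 in WT-TAC2 and 31.0 to 47.4 in the other 5. Most of each sum outside WT-TAC1 came from *Fscn1*, at 44.9, 32.3 and 44.5 FPKM in WT-TAC1, WT-TAC2 and Fat1-TAC2 and 21.2 to 35.4 in the others. *Zbtb46*, a factor of classical dendritic cells, was at 6.29 to 8.13 FPKM in all 8 libraries, with 6.47 in WT-TAC1. The other 9 listed dendritic cell genes were highest in WT-TAC1, which was above the 4 sham libraries for 66.6% of all tested genes. Among these 9, *Flt3* was at 2.20 FPKM in WT-TAC1 and 0.0281 to 0.146 elsewhere. *Clec9a* was at 4.72 FPKM in WT-TAC1, 2.52 in WT-TAC2 and 1.48 to 2.01 in the other 6. *Itgax*, chosen after its values were seen, was at 10.2 FPKM in WT-TAC1, 3.00 in WT-TAC2 and 1.32 in Fat1-TAC2, against 0.366 to 0.949 in the other 5.

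B cell markers, 10 genes, summed to 30.5 FPKM in WT-TAC1, 25.6 in WT-TAC2 and 20.5 in Fat1-TAC2, and to 5.74 to 8.33 in the other 5. The 3 libraries with the highest class II sums had the 3 highest sums of B cell markers, and also of dendritic cell, mature T cell and class I genes. The class I genes summed to 2321 FPKM in WT-TAC1, 1310 in WT-TAC2 and 1210 in Fat1-TAC2, against 727 to 1023 in the other 5. *Cd79a*, a chain of the B cell receptor, was at 4.57 FPKM in WT-TAC1, 4.70 in WT-TAC2 and 3.71 in Fat1-TAC2, and at 0.491 to 1.004 in the other 5. *Pax5*, the factor that keeps B cell identity, was at 2.48, 2.13 and 1.504 FPKM in those 3 libraries and at 0.165 to 0.307 in the other 5. *Blk* alone in the list departed from this. It was at 5.235, 6.08 and 5.42 FPKM in those 3 libraries, but also at 5.81 in Fat1-TAC1, against 2.60 to 2.75 in the sham libraries. *Blk* made up most of the B cell sum of 8.33 FPKM in Fat1-TAC1. In Fat1-TAC2, where class II was above all sham libraries, the airway markers summed to 0.859 FPKM and those of immature thymocytes to 0.718, within the range of the sham libraries without Fat1-Sham1. Above that range were its alveolar type 2 sum, 1.25 FPKM against 0.306 to 0.559, and its mature T cell sum, 3.91 against 1.83 to 2.26. The leukocyte markers, 7 genes including *Ptprc*, summed to 1649 FPKM in WT-TAC1, 141 in WT-TAC2 and 92.4 in Fat1-TAC2, against 70.5 to 116 in the other 5. The class II sum was 0.900 times the leukocyte sum in WT-TAC1 and 1.87 to 3.77 times in the other 7, so it was highest in WT-TAC1 relative to macrophage markers and lowest there relative to all leukocyte markers. Mature T cell markers, 10 genes, summed to 1860 FPKM in WT-TAC1, 6.30 in WT-TAC2 and 3.91 in Fat1-TAC2, against 1.83 to 2.79 in the other 5. Markers of alveolar type 2 cells, which also make class II protein, reached 94.1 FPKM in WT-TAC1, 37.3 in Fat1-Sham1 and 9.13 in WT-TAC2, against 0.306 to 1.25 in the other 5. The sum of the class II members in Fat1-Sham1 was 255 FPKM, against 201 to 238 in the other sham libraries and 241 in Fat1-TAC1. Endothelial markers, 8 genes, summed to 510 FPKM in WT-TAC1 and 544 to 755 elsewhere. The part of these cells in the class II levels was not tested.

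**Figure D5:**
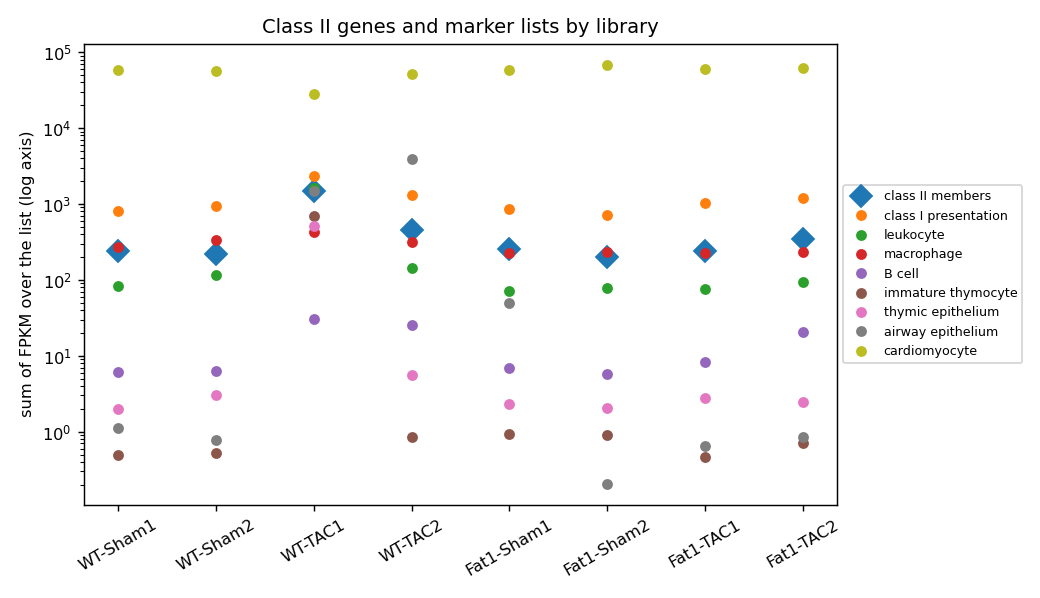
Sum of FPKM over the 7 class II members and over the marker lists in each library, on a log axis. The class II diamonds are highest in WT-TAC1, WT-TAC2 and Fat1-TAC2. There the B cell sums are 30.5, 25.6 and 20.5 FPKM and the class I sums 2321, 1310 and 1210 FPKM. The thymocyte and thymic epithelium sums are high in WT-TAC1 and airway sums in both WT-TAC libraries.

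The genes whose levels were most like the class II mean over the 8 libraries were *Itgb7* (r = 0.998), *Cnot6l* (0.998), *Slamf7* (0.997), *Klhl11*, *Atf6b*, *Cd37*, *Map3k2*, *Wdr4*, *Mxd4* and *Polr1d*. Their Pearson r with the mean log2(FPKM + 1) of the members was 0.994 or more. With WT-TAC1 left out, r over 7 libraries was 0.986 for *Itgb7*, 0.991 for *Cnot6l*, 0.980 for *Slamf7* and 0.981 for *Cd37*. Likeness over 8 libraries was common, since 1932 of 14442 genes had r over 0.95, and 181 did over 7 libraries. Between members, r ran from 0.966 (*H2-Aa* and *H2-DMb1*) to 0.995 (*H2-Ab1* and *Cd74*) over 8 libraries and from 0.833 to 0.969 over 7. These values describe libraries that share tissue and processing, and 1 library with high values raises r for every gene that is high in it.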

How the data were processed

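mRNA-sequencing libraries (TRIzol, NEBNext Ultra RNA kit, Illumina HiSeq) of 8 mouse hearts or pools were used. The authors deposited FPKM values per gene and library. The labels' processing notes name HISAT2 and GRCm38 (mm10). The version, the counting program and the annotation are not given in the sources used here. Of 25929 genes, 25852 were matched to a symbol, and 4 blank lines were removed. For 25928 genes a single length gave whole fragments in all libraries (tolerance 0.02), which gave the depth, and 11815 of these lengths were annotated ones. A pseudocount of 1 FPKM was added before the log2 transform. Genes had to reach 1 FPKM in no fewer than 2 libraries, and limma 3.58.1 (R 4.3.3, lmFit and eBayes with a trend) was fitted to all 8 libraries with 4 group means. Each gene had 1 estimate of spread for all 4 groups, so its SE was the same in every comparison of 2 groups. The script was tested on simulated data. Because of the pseudocount, the fold change of a low gene such as *Ciita* is understated. Nothing says that the 2 libraries of a group came from separate mice, so p-values measure the spread between these libraries, which may be technical. The members, lists, motifs and marker genes were chosen with earlier results of these data known. Named pathway genes are those that define a step, and like genes are the 10 with the highest Pearson r. *H2-Ea*, *Ifi30*, *Rag2*, *Foxn1* and *Psmb11* were not analysed here. Transcripts were aligned with Biopython 1.88. Alternatives were other scalings, filters and pseudocounts, limma-voom on the recovered fragments, the 2 groups alone, a block for the replicate number, no moderation and each library left out.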

Additional observations from a re-analysis of the deposited data

How the results depend on the processing

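No member was called in any comparison under quantile normalization, scaling by the median of ratios, a pseudocount of 0.1, no filter, a filter at a mean of 5 FPKM (which removes *Ciita*), limma-voom on recovered fragments, the 2 groups alone (not run for the interaction) or no moderation. Leaving out 1 library at a time, the number of members called was 0 to 7 upward in WT-TAC against WT-Sham, and 0 to 7 downward in both Fat1-TAC against WT-TAC and the interaction, with 7 only without WT-TAC2, where 6497, 6763 and 5795 of all tested genes were called in those directions, against 133, 201 and 9 with all 8 libraries. The median log2 fold change of the members then ran from 0.93 to 2.57, from -2.17 to -0.61 and from -2.09 to -0.58 in the 3 comparisons, with the ends set by the WT-TAC libraries. Without both WT-TAC1 and Fat1-Sham1, an alternative chosen after seeing the data, these medians were 0.93, -0.61 and -0.48 with 0 members called. Scaling by the median of ratios, which divides by factors of 0.868 to 1.52, brought the medians to 1.28, -0.90 and -0.97, those of all tested genes from 0.39, -0.40 and -0.37 to -0.02, -0.002 and 0.002, and the genes called in those directions to 23, 19 and 0. In the comparisons of Fat1-TAC with Fat1-Sham and of Fat1-Sham with WT-Sham, single members changed sign under some settings. Libraries with the same replicate number did not deviate together (r = -0.135 to 0.0236 over 6 pairs of groups), so the numbers were not taken to pair libraries. With the replicate block the counts of members called were 0 in all comparisons and the medians were 1.73, 0.29, 0.04, -1.35 and -1.38, as without it.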
